A study of Mus musculus with 250 samples.

Results

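Malat1, Neat1, Kcnq1ot1 and Ftx are long non-coding RNAs that stay in the nucleus, and all 4 were found by symbol among the 27003 genes of the deposited table. They were measured in 250 single epidermal cells of mouse tail skin with Smart-Seq2, which reads whole transcripts from sorted cells and adds no molecular identifiers. The 4 genes were selected on earlier results of these cells, including the ratio of Malat1 between distal memory and control plates, so their levels, shares of cells and ratios between regions are a description without a test. The genotype was Lrig1CreER/Rosa-TdTomato, in which a Cre driven by Lrig1, a gene of upper hair follicle stem cells, switches on a red reporter that progeny inherit. Cells were sorted for the Lrig1 lineage (Lrig1 GL) and for surface Sca1, the product of Ly6a, and all carried the time label of 8 weeks. The labels place 81 cells in a distal memory region, 85 in the wound bed and 84 in a control region without memory. Each region was sorted into 2 plates, batch 1 and batch 2, which gave 32 and 49 distal memory, 30 and 55 wound bed, and 28 and 56 control cells. As no animal is named, a region was treated as 1 sample, an error between animals could not be given, and a difference between regions cannot be told apart from one between plates.

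Malat1 is an abundant RNA of nuclear speckles, the bodies where splicing factors gather. Neat1 is the scaffold of paraspeckles, bodies built on its long isoform together with RNA-binding proteins such as NONO and SFPQ. Kcnq1ot1 is an imprinted RNA, made from the paternal chromosome, that silences neighbouring genes in cis. Ftx is a non-coding gene of the X-inactivation centre and lies next to Jpx, near Xist.

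In GENCODE M21 (GRCm38), Malat1 (ENSMUSG00000092341.3) is a single exon of 6983 bases at chr19:5795690-5802672 on the minus strand. Neat1 (ENSMUSG00000092274.3) lies 22035 bases away at chr19:5824708-5845478 on the same strand, with a long isoform of 20771 bases and a short one of 3004 bases. Kcnq1ot1 (ENSMUSG00000101609.2) is a single exon of 93092 bases at chr7:143203458-143296549 on the minus strand, inside Kcnq1, which runs on the plus strand and is not analysed here. Ftx (ENSMUSG00000086370.9) spans chrX:103560907-103623790 on the minus strand with 11 exons in its longest transcript of 4275 bases, and 4790 bases of the gene overlap Jpx. No strand setting is stated for the counts. How reads in the overlaps were assigned, between Kcnq1ot1 and Kcnq1 or between Ftx and Jpx, is therefore not known.

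Smart-Seq2 primes reverse transcription with oligo-dT, which pairs with runs of A. The 3′ end of Malat1 is therefore shown beside that of long Neat1, since both RNAs are cut by RNase P and end in a genome-encoded A-rich stretch instead of a poly(A) tail. Bases 6584 to 6695 of Malat1 lie at chr19:5795978-5796089 and the last bases of long Neat1 (20712 to 20771) at chr19:5824708-5824767, both on the minus strand of GRCm38 and written 5′ to 3′ with U as T. Capitals mark the run of 12 A in Malat1 and the last 11 bases of Neat1.
Malat1: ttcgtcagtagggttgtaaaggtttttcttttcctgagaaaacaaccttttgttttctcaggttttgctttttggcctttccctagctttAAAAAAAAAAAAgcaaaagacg
Neat1: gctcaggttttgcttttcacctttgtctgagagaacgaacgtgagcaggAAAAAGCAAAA
The longest stretch that both printed sequences hold has 16 bases, at Malat1 bases 6640 to 6655 and Neat1 bases 20713 to 20728.
Shared stretch: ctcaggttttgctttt
Runs of 8 or more A numbered 1 in Malat1, 0 in Neat1, 30 in Kcnq1ot1 (the longest of 41 bases) and 0 in Ftx, each counted over the longest transcript. The share of each RNA primed at such runs was not tested.

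RefSeq promoter windows (GRCm38.p6, 250 bases before to 50 after the start) were matched for Malat1, Kcnq1ot1 and Ftx, while Neat1 had no entry. The windows of Malat1 (chr19:5802623-5802922) and Kcnq1ot1 (chr7:143296498-143296797) are printed, both on the minus strand and 5′ to 3′. These were chosen because both RNAs had higher plate sums in distal memory than in the other regions in each batch. For Kcnq1ot1, single cells set those sums. Capitals mark CCAAT, the letters of the CCAAT box, or TGACG, the core of a CRE-like element, on either strand, and no 2 matches overlap.
Malat1 promoter: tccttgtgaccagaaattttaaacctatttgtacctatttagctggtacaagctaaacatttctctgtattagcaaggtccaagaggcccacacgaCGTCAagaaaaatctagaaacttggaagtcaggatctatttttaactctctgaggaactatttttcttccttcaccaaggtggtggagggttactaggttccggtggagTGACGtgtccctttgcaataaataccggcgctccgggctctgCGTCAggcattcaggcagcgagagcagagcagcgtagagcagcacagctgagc
Kcnq1ot1 promoter: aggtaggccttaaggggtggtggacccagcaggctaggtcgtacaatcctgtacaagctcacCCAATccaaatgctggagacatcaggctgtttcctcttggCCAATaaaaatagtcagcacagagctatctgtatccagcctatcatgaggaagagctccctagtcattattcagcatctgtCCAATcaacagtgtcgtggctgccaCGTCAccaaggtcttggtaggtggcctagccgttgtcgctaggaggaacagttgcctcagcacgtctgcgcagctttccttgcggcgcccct
The Malat1 window held TGACG 3 times and CCAAT 0 times, and the Kcnq1ot1 window held CCAAT 3 times and TGACG 1 time. Of 32851 promoters of this length, 1.03% held TGACG at least 3 times (20.8% at least 1 time) and 3.37% held CCAAT at least 3 times (37.4% at least 1 time). GGGCGG, the letters of the GC box, was in neither window, against 35.7% of all promoters. The Ftx window held none of the 3 motifs.

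Depth differed among the plates. Reads per cell ranged from 3857 to 3119120 (median 49298). In batch 1, 4 distal memory cells had 971643 to 3119120 reads each and together held 72.8% of the reads of their plate. Mitochondrial (mt-) transcripts took a median of 39.2% and 28.7% of reads per distal memory cell in batches 1 and 2, 35% and 25.4% per wound bed cell, and 24% and 21.7% per control cell, and no cell passed 50%. Repeat-like predicted genes took over 5% of the other reads in 2 and 1 distal memory, 0 and 1 wound bed, and 18 and 6 control cells. For epidermal identity, the 7 basal genes had reads in 25.2% (Itgb4) to 85.6% (Krt14) of all cells, with Trp63 in 71.6%. The 8 suprabasal genes had reads in 3.2% (Lor) to 92.4% (Krtdap). Ly6a had reads in 53.2% of cells and Lrig1 in 13.2%.

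Malat1 had the most reads and the highest level per kilobase of the 4 RNAs on every plate. Its plate sum was highest in distal memory, next in wound bed and lowest in control within each batch, while the median cell of batch 1 was lower in wound bed than in control. Summed over the plate, it had 108924 and 21506 reads in distal memory cells (batches 1 and 2), 4023 and 2221 in wound bed cells, and 2160 and 1976 in control cells. As TMM-scaled CPM (counts scaled to the library size) of the plate sum, these were 14399.5 and 6080.4 in distal memory, 2225 and 671 in wound bed, and 612 and 395 in control. The batches of 1 region thus did not reach those of another, although wound bed batch 2 and control batch 1 were closer to each other than the batches of either region. Malat1 ranked 5th and 8th of all genes on the distal memory plates, 33rd and 139th on the wound bed plates and 246th and 219th on the control plates.

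Per cell, levels are CPM of the reads outside mt- genes. In distal memory cells Malat1 was lowest at 0, had medians of 2894 and 1326 CPM and reached 42413 and 48127 CPM. Wound bed cells had medians of 23.3 and 0 CPM and a highest cell of 22905 and 9974 CPM. The medians of control cells were 95.5 and 0 CPM, with 16686 and 7229 CPM in the highest cells. All 3 regions had cells at 0 and cells above 1000 CPM, so single cells of the regions overlapped. Above 1000 CPM stood 42 of 81 distal memory cells (51.9%), 23 of 85 in the wound bed (27.1%) and 17 of 84 in control (20.2%). Control batch 1 combined a large share of cells with reads and a low level, since its cells with a Malat1 read had a median of 158 CPM, against 1270.2 CPM in control batch 2.

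**Figure D1:**
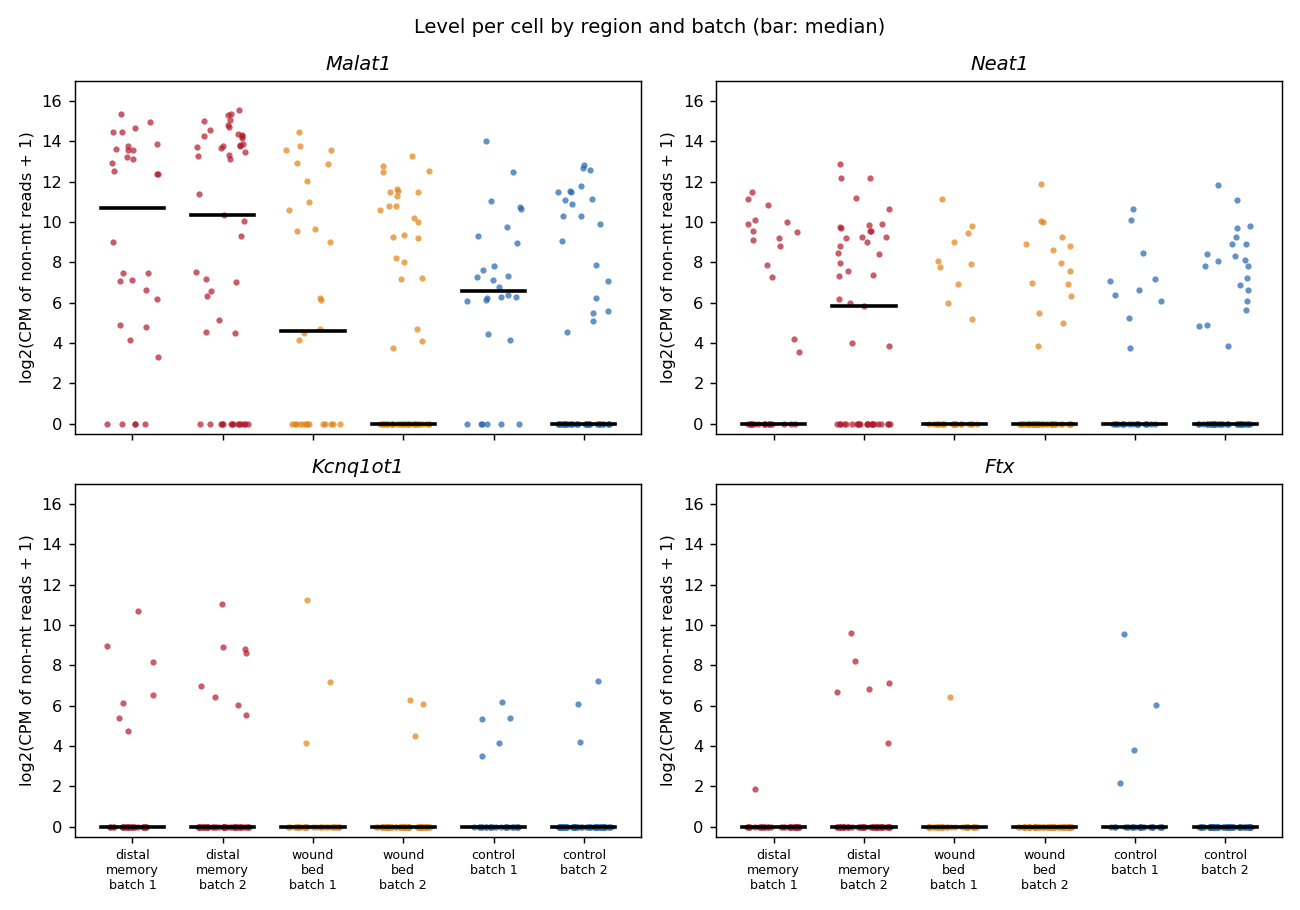
Level of each RNA per cell (log2 of CPM of non-mitochondrial reads plus 1) by region and batch, 1 point per cell with a black bar at the median. Malat1 in distal memory cells reached 42413 and 48127 CPM, while the medians of Kcnq1ot1 and Ftx were 0 on every plate.

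A few cells held much of the Malat1 sum. The 4 deep distal memory cells of batch 1 held 91.4% of the Malat1 reads of their plate, at 12531 to 42413 CPM per cell. These are high values for the plate, whose 32 cells had a median of 2894 CPM. The 4 cells with most Malat1 reads held 42.4% in distal memory batch 2, 83.3% and 79.7% in wound bed, and 81.3% and 48.7% in control.

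At full depth, Malat1 had reads in 62 of 81 distal memory cells (76.5%, exact Clopper-Pearson 95% interval 65.8 to 85.2%), 41 of 85 in the wound bed (48.2%, 37.3 to 59.3%) and 43 of 84 in control (51.2%, 40 to 62.3%). By plate the shares were 84.4% and 71.4% in distal memory, 56.7% and 43.6% in wound bed, and 78.6% and 37.5% in control. Thinned to 10000 reads per cell, which left out 4 distal memory, 7 wound bed and 1 control cell, they were 62.3% in distal memory (50.6 to 73.1%), 43.6% in wound bed (32.4 to 55.3%) and 38.6% in control (28.1 to 49.9%). By plate the thinned shares were 62.5% and 62.2% in distal memory, 51.7% and 38.8% in wound bed, and 57.1% and 29.1% in control. In batch 1 the distal memory and control shares were thus close at equal depth (43.7 to 78.9% and 37.2 to 75.5%), and the gap between these regions lay in batch 2. Thinning matched all reads, mt- reads included. Intervals cover counting error only, because several reads can stem from 1 molecule and several cells from 1 animal.

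**Figure D2:**
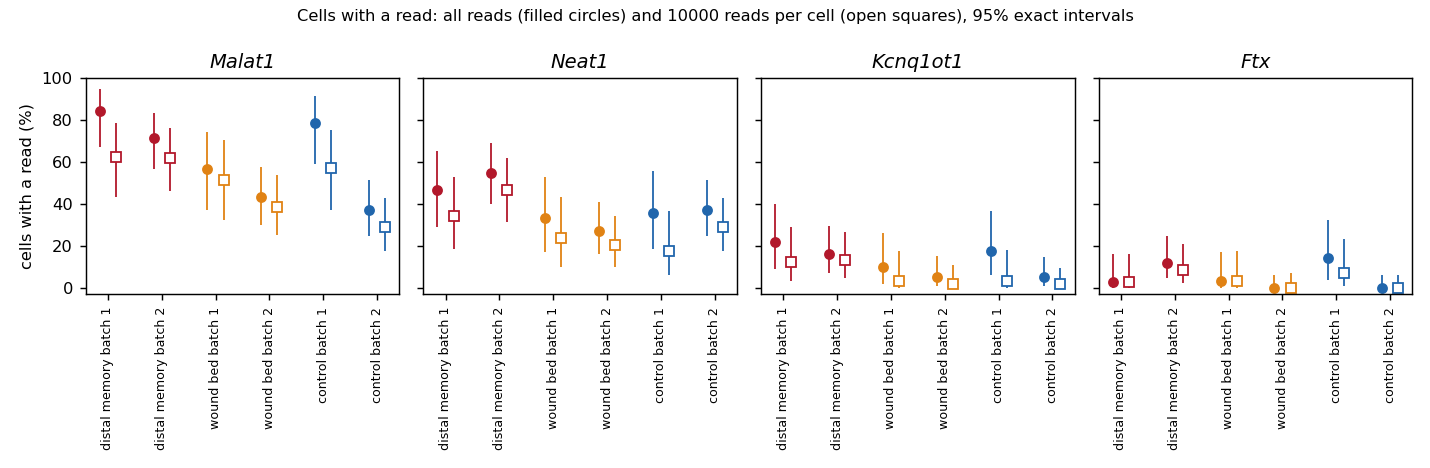
Share of cells with a read of each RNA (percent) by region and batch, at full depth (filled circles) and at 10000 reads per cell (open squares), with exact 95% intervals. Malat1 had reads in 84.4% and 71.4% of distal memory cells, and Ftx in no cell of wound bed and control batch 2.

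Neat1 had reads in fewer cells than Malat1 in each region, and its level in distal memory cells was higher than in either other region. Its plate sums held 5857 and 1500 reads in distal memory cells, 111 and 337 in wound bed cells and 118 and 612 in control cells. In TMM-scaled CPM these were 774 and 424 in distal memory, 61.4 and 102 in wound bed, and 33.5 and 122 in control. The wound bed and control plates interleaved, so their order was not set beyond the spread of the batches, and both distal memory plates stood above all 4 of them. Median levels per cell were 0 on 5 plates and 56.4 CPM in distal memory batch 2. The highest cells had 2888 and 7606 CPM in distal memory, 2231 and 3833 CPM in wound bed, and 1592 and 3698 CPM in control. In distal memory batch 2 a single cell held 53.2% of the Neat1 reads, and the 4 deep cells held 92.8% of those of batch 1.

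Reads of Neat1 were found in 42 of 81 distal memory cells (51.9%, 40.5 to 63.1%), 25 of 85 in the wound bed (29.4%, 20 to 40.3%) and 31 of 84 in control (36.9%, 26.6 to 48.1%). At 10000 reads per cell the shares were 41.6% in distal memory, 21.8% in wound bed and 25.3% in control. Per kilobase of the longest transcript, Malat1 had 2062 and 871 CPM in distal memory, 319 and 96.0 in wound bed, and 87.7 and 56.6 in control. On that scale Neat1 had 37.3 and 20.4 CPM in distal memory, 2.96 and 4.90 in wound bed, and 1.61 and 5.89 in control. Divided by the length of the short Neat1 isoform the values were 258 and 141 in distal memory, 20.4 and 33.9 in wound bed, and 11.1 and 40.8 in control. Malat1 per kilobase was above Neat1 on each of the 6 plates with either length.

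Kcnq1ot1 was rare, and single cells set its sums. It had reads in 15 of 81 distal memory cells (18.5%, 10.8 to 28.7%), 6 of 85 in the wound bed (7.06%) and 8 of 84 in control (9.52%). At 10000 reads per cell this was 13% in distal memory, 2.56% in wound bed and 2.41% in control. The plate sums were 3755 and 209 reads in distal memory, 293 and 8 in wound bed, and 20 and 8 in control. In TMM-scaled CPM they were 496 and 59.1 in distal memory, 162 and 2.42 in wound bed, and 5.67 and 1.60 in control. One cell held 83.9% and 72.2% of the distal memory reads of batches 1 and 2, and one held 98.6% of those of wound bed batch 1. The highest single cells were at 1640.5 and 2131 CPM in distal memory, 2407 and 77.4 CPM in wound bed, and 72.4 and 148 CPM in control.

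Ftx was near the limit of detection. It had 3 and 73 reads in distal memory cells, 2 and 0 in wound bed cells and 234 and 0 in control cells. Cells with a read numbered 1 of 32 and 6 of 49 in distal memory, 1 of 30 and 0 of 55 in wound bed, and 4 of 28 and 0 of 56 in control. Of the 234 reads of control batch 1, 226 came from 1 cell, so the plate sum followed that cell. By a floor of 3 counts, 0 of 55 wound bed cells allows a share of up to 5.45%, and 0 of 56 control cells up to 5.36%. Jpx, its neighbour, had 29 and 3 reads in distal memory, 11 and 22 in wound bed, and 0 and 25 in control.

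Ratios between regions were taken within each batch, as log2 of TMM-scaled CPM plus 1 of the plate sums. A gene met the size rule when both batch ratios were at least 1 in size with the same sign, among genes with reads in 10% or more of cells in 1 or both regions, in each batch. In distal memory against control, Malat1 had log2 ratios of 4.55 and 3.94 (mean 4.25, 19-fold), Neat1 4.49 and 1.78 (3.14, 8.80-fold) and Kcnq1ot1 6.22 and 4.53 (5.38, 41.5-fold). These 3 of the 4 members met the size rule as higher, and 8.07% of the 6356 genes considered did so. As lower, 0 members and 6.09% of genes met it. Kcnq1ot1 passed the detection filter of batch 2 through distal memory alone (16.3% of cells, against 5.36% in control). The choice of members also used this contrast, so nothing is read from the count of members. Ftx passed the filter through control alone in batch 1 (14.3% of cells, against 3.13% in distal memory). In batch 2 it passed through distal memory alone (12.2%, against 0% in control). Each time this was the region where it was higher. Ftx had opposite directions: by counts it was 167-fold lower in distal memory than in control in batch 1 (counting interval 56.5 to 817) and higher in batch 2. The batch 2 value was at least 34.4-fold if reads are taken as independent counts, but 41 of the 73 distal memory reads came from 1 cell. In batch 1 the fold rested on 1 control cell: the fitted log2 ratio was -5.59 with all cells, -1.81 without the cell with most Ftx reads on each plate (a setting chosen after seeing the data) and -0.34 without repeat-rich cells. All distal memory Ftx reads of batch 1 lay in 1 cell, so in the -1.81 the added 1 CPM alone stood for distal memory.

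Distal memory against wound bed gave log2 ratios of 2.69 and 3.18 for Malat1 (mean 2.94, 7.65-fold), 3.64 and 2.05 for Neat1 (2.84, 7.17-fold) and 1.61 and 4.14 for Kcnq1ot1 (2.87, 7.33-fold). All 3 members considered met the rule as higher, while 9.59% of 6285 genes did, and 0 members and 5.28% of genes met it as lower. Kcnq1ot1 passed the detection filter of batch 2 through distal memory alone (16.3% of cells, against 5.45% in wound bed), and the members were chosen with these plates in view, so nothing is read from this count either. Ftx was not considered in this pair, with a read ratio of 0.359 in batch 1 (0.0411 to 4.29, from 3 reads against 2). In batch 2 its level was at least 22.8-fold higher in distal memory, again only if reads are taken as independent counts. In wound bed against control, Malat1 stood at 1.86 and 0.76 and Neat1 at 0.86 and -0.26. Neither of these 2 members considered met the rule, against 7.83% of 5776 genes that met it as higher and 8.24% as lower. Kcnq1ot1 (4.61 and 0.39) and Ftx (60-fold lower by counts in batch 1, interval 16.4 to 498, and no reads in either plate of batch 2) were below the detection filter there. The log2 ratio of Ftx in batch 1 of that pair was -5.00 with all cells, -1.81 without the cell with most Ftx reads on each plate and 0.27 without repeat-rich cells. All wound bed Ftx reads lay in 1 cell, so in this -1.81 the added 1 CPM alone stood for wound bed. Without repeat-rich cells Neat1 stood at 2.44 and -0.27, and Malat1 at 0.92 and 0.73. The 3 comparisons share plates, so their values are given side by side and not as separate evidence.

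The 4 deep cells of distal memory batch 1 bear on these ratios. Without them, Malat1 against control stood at 2.5 and 3.94 and still met the rule, and against wound bed at 0.65 and 3.18, which did not. Kcnq1ot1 against control stood at 0.14 and 4.55 and against wound bed at -4.48 and 4.15. Neat1 against control was at 2.19 and 1.78 without them and at 1.45 and 1.31 in thinned cells, and met the rule both times. Neat1 against wound bed was at 1.34 and 2.05 without them and at 0.87 and 1.51 in cells thinned to 10000 reads. With every cell weighted equally, Kcnq1ot1 against control was at 0.64 and 0.88, and Malat1 in wound bed against control was at -0.70 and 0.67.

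**Figure D3:**
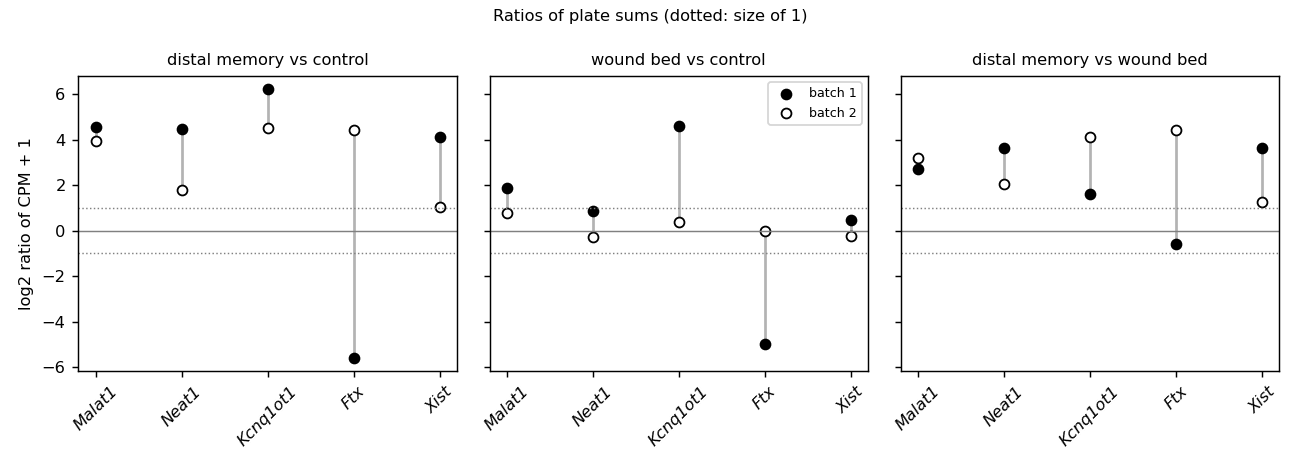
Log2 ratio of TMM-scaled CPM plus 1 between plate sums for the 4 RNAs and Xist, by comparison (panels), with batch 1 filled and batch 2 open and dotted lines at a size of 1. Malat1 in distal memory against control stood at 4.55 and 3.94, and Ftx had opposite signs in the 2 batches of that pair.

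Malat1 and Neat1 occurred together in single cells. In distal memory, 40 cells had reads of both, 22 of Malat1 alone, 2 of Neat1 alone and 17 of neither. In the wound bed 22 cells had both, 19 Malat1 alone, 3 Neat1 alone and 41 neither. In control 20 cells had both, 23 Malat1 alone, 11 Neat1 alone and 30 neither. Among cells with a Neat1 read, Malat1 was found in 95.2% in distal memory, 88.0% in the wound bed and 64.5% in control, against 56.4% of the distal memory, 31.7% of the wound bed and 43.4% of the control cells without one. Control batch 2 held 10 of the 11 control cells with Neat1 alone, so the share was 90% in control batch 1 and 52.4% in batch 2. At 10000 reads per cell the shares among Neat1 cells were 96.9% in distal memory, 94.1% in wound bed and 61.9% in control.

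Spearman's rho of Malat1 with Neat1 over the cells of a plate was 0.76 and 0.70 in distal memory, 0.74 and 0.66 in wound bed and 0.35 and 0.31 in control. It was positive on all 6 plates, of 28 to 56 cells each. Without repeat-rich cells it was 0.71 over the 10 cells left in control batch 1 and 0.29 in control batch 2, against 0.63 to 0.78 on the distal memory and wound bed plates. These correlations are descriptions, since the cells of a plate share library, depth range and composition. The median over plates of 0.68 became 0.67 in thinned cells and 0.56 with the number of detected genes held constant, a setting chosen after seeing the data. Malat1 itself followed detected genes with rho of 0.73 and 0.49 in distal memory, 0.48 and 0.23 in wound bed, and 0.19 and 0.19 in control.

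Kcnq1ot1 followed Malat1 less closely, with rho of 0.57 and 0.43 in distal memory, 0.04 and 0.35 in wound bed, and 0.31 and 0.17 in control. Of the cells with a Kcnq1ot1 read, 15 of 15 in distal memory, 5 of 6 in the wound bed and 7 of 8 in control also had Malat1. Among cells without one, Malat1 was found in 71.2% in distal memory, 45.6% in the wound bed and 47.4% in control. At 10000 reads per cell, Malat1 was found in 90% of 10 distal memory, 50% of 2 wound bed and 50% of 2 control cells with Kcnq1ot1. In thinned cells rho was positive on 4 plates and negative in wound bed batch 1 (-0.18) and control batch 2 (-0.09). Ftx with Malat1 had rho of 0.17 to 0.28 on the 4 plates with Ftx reads. Reads of 3 or 4 of the RNAs were found in 15 and 2 distal memory cells, 5 and 0 wound bed cells and 6 and 0 control cells, while 17 distal memory, 40 wound bed and 29 control cells had none of them.

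**Figure D4:**
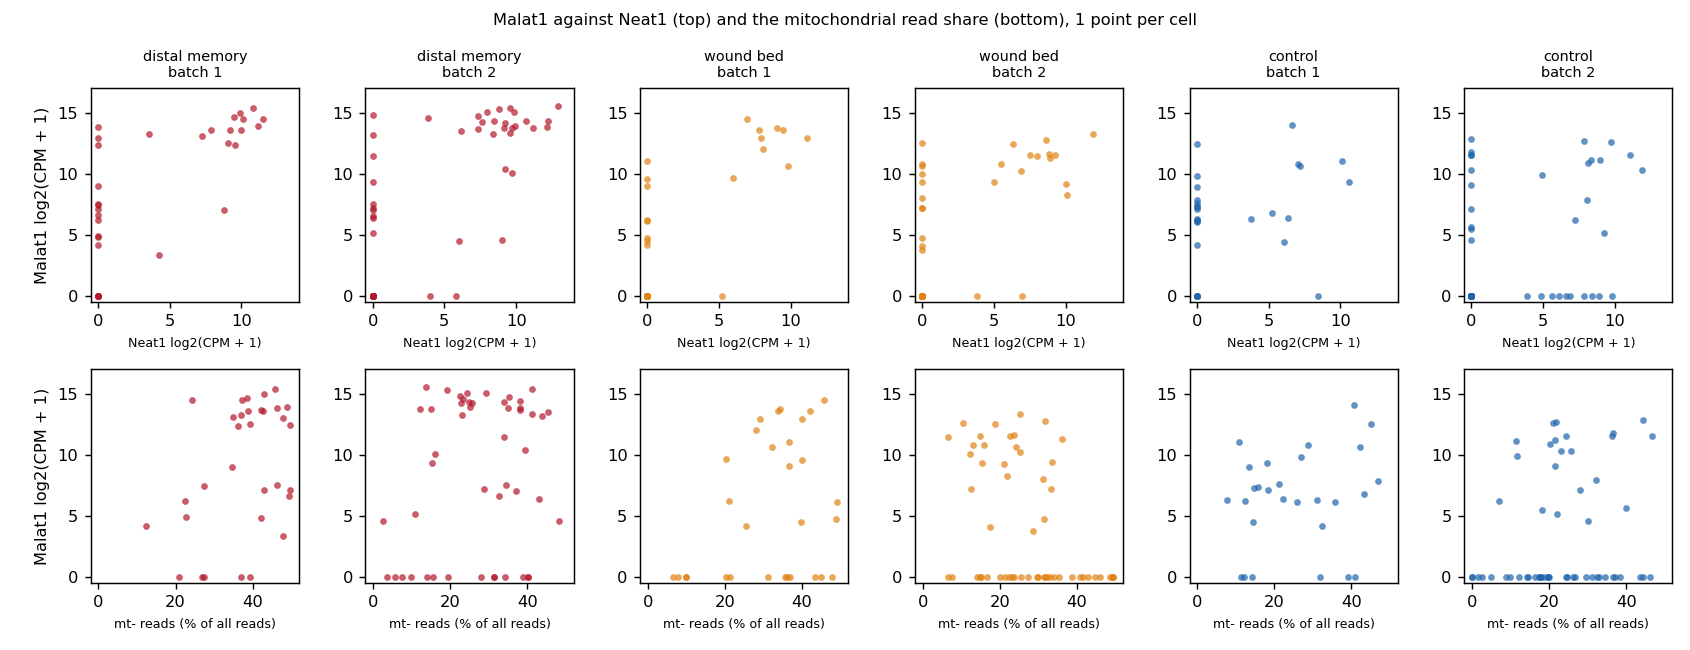
Malat1 level per cell (log2 of CPM of non-mitochondrial reads plus 1) against the Neat1 level on the same scale (top) and against the mitochondrial share of reads in percent (bottom), 1 panel per plate. Cells high in Neat1 were mostly high in Malat1 in distal memory and wound bed, where rho was 0.66 to 0.76, and 10 cells of control batch 2 had Neat1 without Malat1.

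The share of mt- reads followed the members weakly within plates. Malat1, measured against the reads outside mt- genes, had rho with that share of 0.30 and 0.11 in distal memory, 0.24 and -0.37 in wound bed, and 0.19 and 0.22 in control (median 0.20). It was positive on 5 plates and negative in wound bed batch 2. Neat1 with the mt- share had a median rho of -0.0020 over plates from -0.29 to 0.28, Kcnq1ot1 a median of 0.036 (-0.21 to 0.30) and Ftx 0.021 over 4 plates. Between regions the mt- share was highest in distal memory, at 41.8% and 25.9% of plate reads, with 31.2% and 25.5% in wound bed and 26.9% and 23.5% in control. The part of the mt- share in the ratios was not tested.

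Xist, the RNA that coats the inactive X chromosome, is a nuclear long non-coding RNA outside the 4 and its median within-plate rho was 0.70 with Malat1 and 0.56 with Neat1. Its rho with Malat1 was 0.83 and 0.83 in distal memory, 0.70 and 0.70 in wound bed, and 0.26 and 0.51 in control. With Neat1 it was 0.67 and 0.64 in distal memory, 0.75 and 0.37 in wound bed, and 0.03 and 0.48 in control. Malat1 was found in 42 of 43 distal memory cells with an Xist read, in 24 of 26 wound bed cells and in 19 of 21 control cells. Among cells without an Xist read the shares were 52.6%, 28.8% and 38.1%, in that order. Xist met the size rule in distal memory against control (4.13 and 1.03) and against wound bed (3.65 and 1.27), and stood at 0.48 and -0.25 in wound bed against control. Of 2 X-inactivation centre genes considered, Xist was the 1 that met the rule in these 2 pairs. One deep cell held 70.9% of its 31782 reads in distal memory batch 1. Tsix, its antisense partner, had 91 reads in 1 cell of distal memory batch 2 and 0 reads elsewhere. With no strand setting stated, it is not known whether those reads were kept apart from Xist reads.

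**Figure D5:**
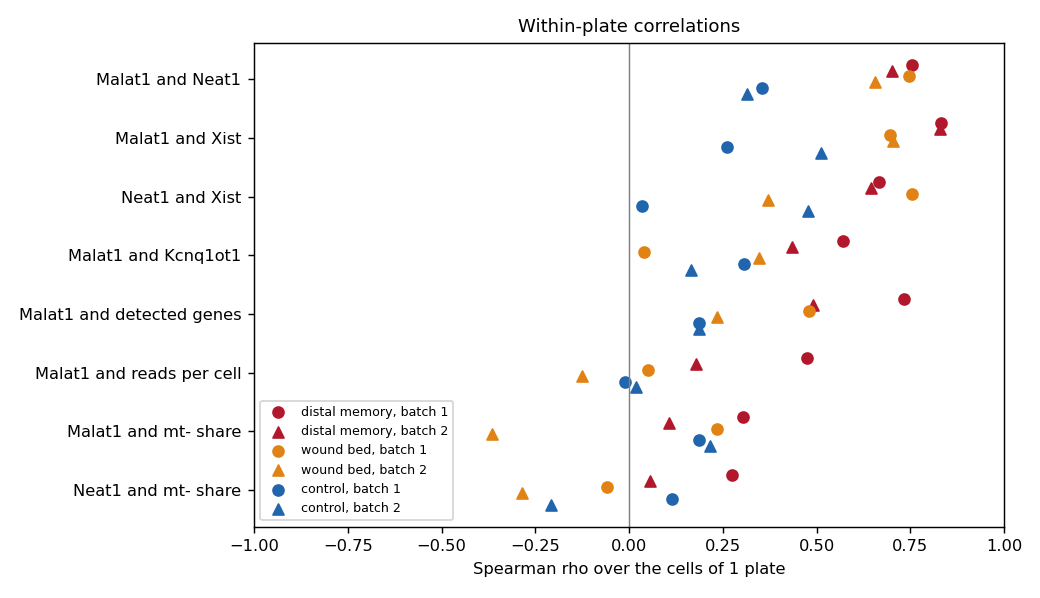
Spearman's rho over the cells of each plate for pairs of RNAs and for Malat1 or Neat1 against detected genes, reads per cell and the mitochondrial share, with colour for region and shape for batch. Malat1 with Neat1 was positive on all 6 plates (0.31 to 0.76), and Malat1 with the mitochondrial share ran from -0.37 to 0.30.

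Among 1084 other genes with reads in 25% or more of the cells on every plate, the median within-plate rho was 0.056 with Malat1 and 0.052 with Neat1. The 5 most like Malat1 were Plec (0.45), a linker of the cytoskeleton, Mdm4 (0.44), an inhibitor of p53, U2surp (0.39), a splicing protein, Map3k1 (0.36), a kinase, and Huwe1 (0.36), a ubiquitin ligase. For Neat1 they were Plec (0.40), Lars2 (0.35), a mitochondrial tRNA synthetase, U2surp (0.34), Trip12 (0.33), a ubiquitin ligase, and Srrm2 (0.32), a scaffold of nuclear speckles. Plec ranged over plates from 0.22 to 0.67 with Malat1 and from 0.12 to 0.69 with Neat1, and Huwe1 from -0.02 to 0.43 with Malat1. In thinned cells the medians were 0.28 to 0.37 for the Malat1 genes and 0.30 to 0.43 for the Neat1 genes. The number of detected genes per cell had a median rho of 0.36 with Malat1 and 0.36 with Neat1, and was not held constant for these lists.

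Genes for proteins of the bodies that these RNAs occupy were counted by the same rule. Of 12 paraspeckle protein genes considered in distal memory against control, 1 met the size rule as higher and 2 as lower (all genes 8.07% and 6.09%), with list medians of 1.10 and -1.13 beside 0.23 and -0.07 for all genes. The higher one was Hnrnph3 (5.73 and 1.26, with 2 control reads in batch 1), and the lower ones were Hnrnpk (-1.99 and -1.12), an abundant RNA-binding protein, and Smarca4 (-1.06 and -1.18), a chromatin remodeller. In distal memory against wound bed 0 of 11 met it in either direction, and in wound bed against control 1 of 11 did, Dazap1 (-3.29 and -1.33, with 0 wound bed reads in batch 1).

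Among nuclear speckle and splicing genes, 1 of 17 was higher in distal memory than in control by the rule and 0 were lower, again beside 8.07% and 6.09% of all genes. It was the splicing factor Srsf5 (2.21 and 1.23), with reads in 60.5% of distal memory and 29.8% of control cells. Against wound bed, 2 of 17 were higher in distal memory (all genes 9.59%), Srsf5 (1.22 and 1.15) and the splicing kinase Clk1 (2.06 and 1.05). Pnn, a speckle protein, was the 1 of 17 that was higher in wound bed than in control (1.81 and 2.03; all genes 7.83%). List medians were 0.63 and 0.04 in distal memory against control, 0.71 and 0.70 in distal memory against wound bed (all genes 0.25 and -0.02), and -0.19 and 0.03 in wound bed against control (all genes 0.03 and -0.03).

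Too few genes around the members passed the detection filter to set their counts against the shares of all genes. Of 3 genes of the Kcnq1ot1 imprinted domain considered in distal memory against control, 1 was higher, the histone chaperone Nap1l4 (1.43 and 1.60), and 0 were lower, with list medians of 0.18 and 0.45. In wound bed against control 0 of 3 and in distal memory against wound bed 0 of 4 met it. Chromosome 19 neighbours of Malat1 and Neat1 met it in 0 of 3 cases in distal memory against control and 0 of 2 against wound bed, with medians of -0.16 and -0.59 in the first pair. In wound bed against control Capn1, a calpain protease, was higher (1.75 and 1.78, with 1 control read in batch 1) and Ltbp3, which binds latent TGF-beta, was lower (-1.99 and -2.25). Other long non-coding RNAs gave 1 of 9 higher in distal memory than in control and 1 of 7 higher in wound bed than in control, both times Mir205hg (2.80 and 1.27, and 2.63 and 1.21), the host gene of miR-205. Medians of that list were 0.43 and 0.35 in distal memory against control and 0.19 and 0.29 in wound bed against control, and 0 of 8 met the rule in distal memory against wound bed. Repeat-like predicted genes met it in 0 of 11 cases in distal memory against control, with medians of -5.17 and 1.22 that opposed each other. In wound bed against control 11 of 11 were lower (medians -6.37 and -4.42, all genes 8.24%), and in distal memory against wound bed 4 of 8 were higher (medians 1.11 and 5.66, all genes 9.59%). Repeat-like genes moved together: in distal memory against control they ran from -6.09 to -4.25 in batch 1 and from 0.71 to 1.93 in batch 2. The control plates held 18 and 6 repeat-rich cells, and nothing is read from the counts of this list.

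Markers of other cells were scarce. Of the leukocyte list, Cd3e, Trdc and Cd207 had 0 reads, and Ptprc and Cd74 had reads in 2 cells each and Tyrobp in 1. Col1a2, Pdgfra and Cdh5 had 0 reads, Col1a1 and Pmel had reads in 1 cell each, Kdr and Mlana in 2 each, Pecam1 in 3 and Dcn in 5. Keratinocyte lists differed between plates, with upper hair follicle genes (8 of 8 with reads on 5 plates, 7 of 8 in wound bed batch 2) summing to 4196 and 6818 CPM in distal memory, 2316 and 12756 in wound bed, and 16184 and 28401 in control. The 8 suprabasal genes summed to 19678 and 9788 CPM in distal memory, 33189 and 25463 in wound bed, and 14659 and 12977 in control, and the rho of Malat1 with that sum was -0.26 and -0.21 in distal memory, -0.33 and 0.26 in wound bed, and -0.23 and -0.23 in control. For the 7 basal genes, rho with Malat1 was 0.37 and 0.29 in distal memory, 0.33 and -0.16 in wound bed, and 0.07 and 0.07 in control. The part of cell state in the ratios of the 4 RNAs was not tested.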

How the data were processed

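Single cells of 3 regions in 2 batches were analysed from 1 table of whole-number read counts per gene and cell, as deposited by the authors. Salmon 0.13.1, R 4.0.3, Seurat and the build mm10 (GRCm38) are listed in the submitters' processing notes. The role of each, the strand setting and how estimates became gene counts are not given in the sources used here. All columns matched a label and 0 were identical. Neither doublets nor free RNA were removed, and the values given first hold every cell.

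Counts were summed per plate and scaled with edgeR 4.0.16 (TMM, R 4.3.3). Log2 ratios used CPM plus 1. With 1 sample per region no test was run. Correlations and intervals used SciPy 1.17.1 (Python 3.11.15) on CPM of reads outside the 36 mt- genes. The calculation was checked on simulated counts. Total reads per plate were 10671470 and 2888806 in distal memory, 1751116 and 2898446 in wound bed, and 4481121 and 4029606 in control. Coordinates came from GENCODE M21 and promoters from RefSeq.

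The members, gene lists and rules were chosen with earlier results of these data known. Named genes were the members, list genes meeting the size rule, Xist, Ly6a, Lrig1 and the 5 genes most like Malat1 and Neat1, with the cell type markers and the overlapping genes Jpx and Tsix. Of the lists, 9 genes had no row here, among them Kcnq1, and were not analysed here. Alternatives changed scaling, pseudocount, filter, weighting, depth and cells.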

Additional observations from a re-analysis of the deposited data

Results flagged for a closer look

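Ftx in distal memory against control went in opposite directions in the 2 batches, with a log2 ratio of -5.59 in batch 1 and 4.44 in batch 2, the second set by the added 1 CPM because control had no reads. The difference of batch 1 minus batch 2 was -10.03 and was not tested. Ftx passed the detection filter through control alone in batch 1 and through distal memory alone in batch 2, each time the region where it was higher. Batch 1 stood at -1.81 without the cell with most Ftx reads on each plate and at -0.34 without repeat-rich cells. In the -1.81 the added 1 CPM alone stood for distal memory, whose Ftx reads all lay in 1 cell. The difference rested on 3 reads in distal memory and 234 in control in batch 1, of which 226 came from 1 control cell, and on 73 reads in distal memory and 0 in control in batch 2. Of these 73 reads, 41 came from 1 cell.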

How the results depend on the processing

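Of the recomputed values, 262 stayed within the spread of the batches or plates, or within 1.5 times for counts. A further 46 moved beyond it and 1 was labelled reversed. Other values also changed sign, among them those given below, and were counted as within the spread or as moved. Some of the 262 could not move. A ratio with 1 batch left out always lies within the standard deviation of the 2 batches, and the limit on mt- reads removed no cell. The 4 deep cells were not part of wound bed against control. The spread of the batches was very wide for Ftx. It was also wide for Kcnq1ot1 in wound bed against control (standard deviation of the batches 2.98) and Neat1 in distal memory against control (1.91). Neat1 in distal memory against control (3.14) thus counted as within it at 1.58 with equal weights and 1.38 thinned. In distal memory against control, the mean Malat1 log2 ratio of 4.25 became 3.59 with every cell weighted equally, 3.22 without cells over 500000 reads, 3.21 in thinned cells and 3.81 without repeat-rich cells. Kcnq1ot1 (5.38) became 0.76, 2.35 and 3.84 under the first 3 of these, and 4.10 without the cell with most of its reads on each plate, a setting chosen after seeing the data. In wound bed against control Malat1 (1.31) became -0.015 with equal weights, which also turned Neat1 (0.30) to -0.31 and Kcnq1ot1 (2.5) to -0.04. Kcnq1ot1 in that pair was at -0.09 without its top cell per plate, and Ftx (-2.5) was at 0.14 without repeat-rich cells. Ftx in distal memory against control (-0.58) turned to 0.06 with equal weights, 0.77 thinned, 1.57 without repeat-rich cells and 0.80 without its top cell per plate. In distal memory against wound bed, Malat1 (2.94) became 3.6 with equal weights, 1.91 without the deep cells and 2.41 thinned, and Neat1 (2.84) became 1.69 without the deep cells and 1.19 thinned. Kcnq1ot1 in that pair (2.87) became 0.80 with equal weights and turned to -0.16 without the deep cells. Members meeting the size rule in wound bed against control were 0, but 1 in cells with at least 2000 genes and 0 to 1 with a batch left out. In distal memory against wound bed they were 3, but 1 without the deep cells and 1 in thinned cells. Thinning brought Malat1 to 62.3% of distal memory and 38.6% of control cells, Neat1 to 25.3% of control cells, and Kcnq1ot1 to 2.56% of wound bed and 2.41% of control cells. The median rho of Malat1 with Ftx (0.19) became 0.12 with detected genes held constant. Malat1 and Neat1 met the rule in distal memory against control in 11 of 11 settings of cells and scaling, and Kcnq1ot1 in 9. For distal memory against wound bed the counts were 10, 10 and 7, and for wound bed against control 1, 0 and 0. Ftx met it in 0 settings of each pair. The 11 include the setting given first and the limit on mt- reads, which removed no cell and so repeated it. The members were chosen with the first pair in view, so nothing is read from these counts.

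Counts of genes meeting the size rule depended on the setting. For distal memory against control, wound bed against control and distal memory against wound bed they were 900, 928 and 935, and 246, 285 and 237 with equal weights, 1496, 1719 and 1731 in cells with at least 2000 genes, 397, 574 and 488 thinned, 1905, 1992 and 1987 without a detection filter, and 250, 246 and 247 at a filter of 25%. With 1 batch left out they ran from 2641 to 3912, 2549 to 3276 and 3319 to 3344. The share of higher genes among those meeting it was 57% in the first pair (85.8% with equal weights), 48.7% in the second (63.5% with equal weights) and 64.5% in the third (47.3% thinned). The cause of these shifts was not tested. No paired analysis was possible because the values come from no test and each region is 1 sample. The batch numbers were used only to take each ratio within a batch. Leaving out cells over 50% mt- reads gave no value of its own, since there were none. Sparse reads limit Kcnq1ot1 and Ftx.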
